A study of Mus musculus with 3 samples.

Results

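The subunits of the mitochondrial respiratory chain and of ATP synthase were followed through the first days of a conditional Pou5f1 knockout in mouse embryonic stem (ES) cells. Members were the genes whose symbol on the array starts with 1 of 12 prefixes: Ndufa, Ndufb, Ndufc, Ndufs and Ndufv for complex I, Uqcr for complex III, Cox4 to Cox8 for complex IV, and Atp5 for ATP synthase. These prefixes matched 86 genes among the named genes of the array, 78 named as subunits and 8 complex I assembly factors, the Ndufaf genes. They are measured by 170 of 45037 probe sets, and 159 of those reached the signal filter, as did 83 of the 86 genes and 75 of the 78 subunit genes. Another 10 probe sets name a member together with another gene and gave no value. Ndufa11 and Ndufs6 have no other probe set and were not analysed here.

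Total RNA was hybridised to 1 array for each of 3 groups, which are the days of the knockout: day 0, day 1 and day 2. All groups carry the conditional allele of Pou5f1, which encodes the pluripotency factor Oct3/4. The sources used here name no inducer, strain, clone or feeder cells. Without arrays of uninduced cells at the later days, the loss of Oct3/4 and the time in culture cannot be told apart. With no replicates there is no error and no test, and every difference describes these 3 arrays. In bulk RNA, fewer cells of a type and less RNA per cell cannot be told apart either. The labels were checked on Pou5f1 itself, which read 2400, 40.8 and 15.5 from day 0 to day 2. The summed signal of 8 ES cell markers was 112650, 68215 and 23659 in the order of the days, and that of 8 trophectoderm markers was 7606, 11866 and 53546. The summed signal of 8 fibroblast markers was 660, 545 and 380 in the order of the days, and 2 of the 8 reached the filter.

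The respiratory chain sits in the inner mitochondrial membrane. Complex I takes electrons from NADH, complex III passes them to cytochrome c, and complex IV hands them to oxygen. ATP synthase uses the proton gradient that these complexes build up to make ATP. Most subunits are encoded in the nucleus, and the rest in mitochondrial DNA, which the prefixes do not cover. Several complex IV subunits come as paralogues, a widely used form beside one known from muscle, lung or testis. ES cells are known for drawing much of their ATP from glycolysis.

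Expression of the subunits was close to even over the 3 days. Of 75 measured subunit genes, 72 stayed within 1.5-fold in all 3 comparisons between days. The exceptions were Ndufa4l2, Cox6b2 and Cox7a1, each a paralogue of a widely used subunit, and each was lower at the later day. Over all 12717 genes measured, 35% were past 1.5-fold in at least 1 comparison. Differences of bright genes spread less, so the subunits were also set beside those. Among 2396 genes with a mean signal of at least 2000, 20.9% were past 1.5-fold in at least 1 comparison, and of the 66 subunit genes with such a signal 0 were. The middle 50% of these bright genes was 0.47 wide at day 2, where that of all genes was 0.64 and that of the 66 subunit genes 0.26. The limit of 2000 was chosen after the values had been seen. It leaves out all 3 exceptions, whose mean signals were 110 (Ndufa4l2), 902 (Cox7a1) and 1395 (Cox6b2). The count of 0 therefore follows from the limit and is no further sign of evenness. Differences are on the scale of log2(signal + 55.9), where 1.5-fold is 0.585, and the constant understates the differences of dim genes. A gene is represented by its brightest probe set.

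At day 2 against day 0 the median difference of the 75 subunit genes was −0.04, with the middle 50% of genes between −0.19 and 0.09 and 59 genes, or 78.7%, within 0.25 of no difference. The median of all genes was 0.05, with the middle 50% between −0.27 and 0.37 and 40.8% of genes within 0.25. At day 1 against day 0 the subunit median was −0.03 (middle 50% from −0.11 to 0.06), and at day 2 against day 1 it was −0.0027 (−0.11 to 0.09). At least 1.5-fold higher at day 2 were 0 subunit genes, beside 14.6% of all genes, and at least 1.5-fold lower were 2, beside 11.8%. For day 1 against day 0 these counts were 0, beside 9.62% of all genes, and 2, beside 7.29%. For day 2 against day 1 they were 0, beside 7.1%, and 2, beside 8.79%. Past 2-fold at day 2 there were 2 lower subunit genes, beside 5.65% of all genes, and 0 higher, beside 5.25%. Above 0 at day 2 were 32 of the 75 subunit genes and 54.1% of all genes. That split depends on the scaling, since 19 of 75 were above 0 when the arrays were set to equal medians of cytosolic ribosomal protein genes.

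**Figure D1:**
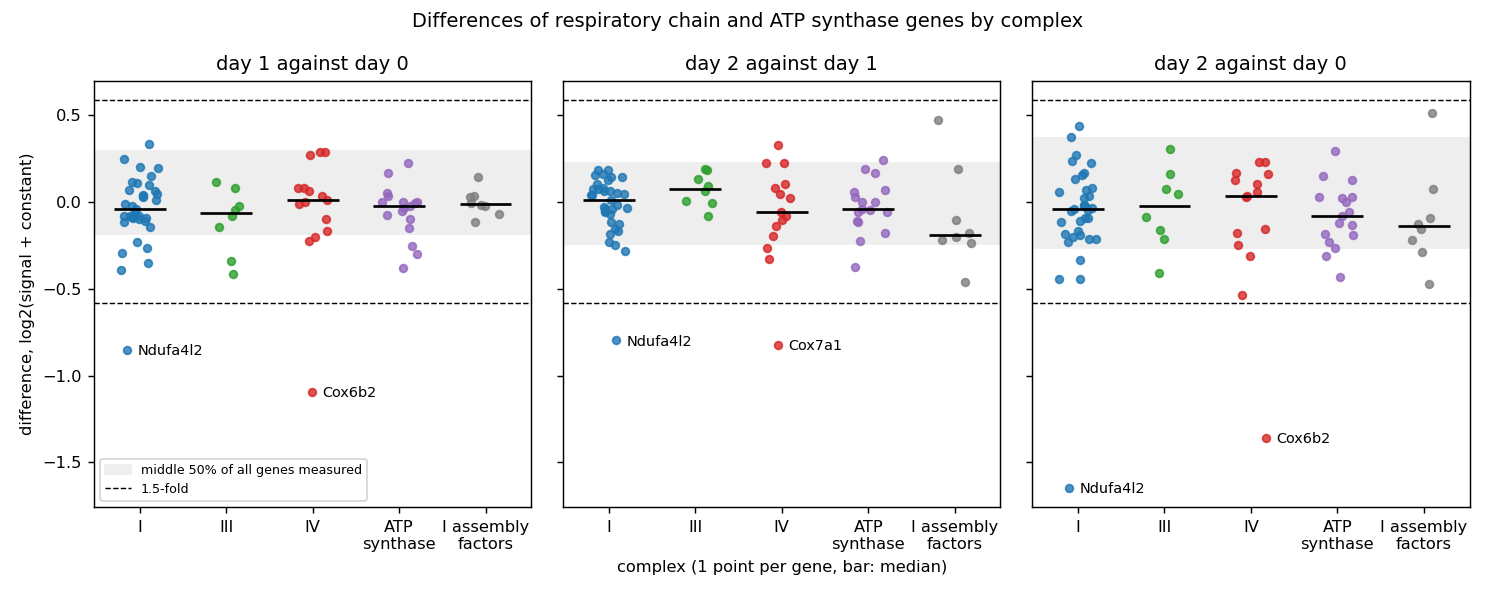
Difference in log2(signal + constant) of each member gene, 1 panel per comparison between days, with genes placed by complex, a bar at each median, the middle 50% of all genes in grey and 1.5-fold dashed. Nearly all points lie between the dashed lines, and the labelled Ndufa4l2, Cox6b2 and Cox7a1 lie below them.

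How far the differences from several probe sets of 1 gene disagree gives a scale for reading single genes. It holds no variation between arrays or between cultures, so it is not the error of a difference between days. For day 2 against day 0 the pooled SD between probe sets was 0.23 over 122 kept probe sets of 46 member genes. Over all genes with several kept probe sets it was 0.34. For day 1 against day 0 the member value was 0.19. The order of genes whose differences lie closer together than this is not resolved.

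Complex I, the NADH dehydrogenase, had 35 measured genes by name, with a median of −0.04 at day 2 and −0.04 at day 1. The 6 measured core subunits, which bacteria share and which do the electron transfer, were Ndufs1, Ndufs3, Ndufs7, Ndufs8, Ndufv1 and Ndufv2. With their brightest probe sets they lay between −0.09 and 0.37 at day 2. Ndufv1, which holds the NADH-binding site, read 6402, 6000 and 6324 in the order of the days with its brightest probe set. Its other kept probe sets gave −0.21 and −0.18 at day 2. Those of Ndufv2 gave −0.23 and −0.44, where its brightest gave 0.15. The other one of Ndufs7 gave −0.17, where its brightest gave 0.02. Ndufs8, an iron-sulphur subunit, was the highest of the 6, at 5774, 6869 and 7489. Its other 5 kept probe sets gave 0.03 to 0.31 at day 2, where the brightest gave 0.37.

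The accessory subunits surround this core. By name 29 measured genes were counted among them, which takes in Ndufa4 and its paralogue Ndufa4l2. Of the 29, 28 stayed within 1.5-fold in all 3 comparisons, where 35% of all genes were past it in at least 1. Ndufb3 read 3200, 2656 and 2333 (−0.45 at day 2) and Ndufb6 read 7740, 5888 and 5672 (−0.44). Both were lower at day 1 and at day 2 than at day 0. Ndufb1 was the highest by difference at 0.44, with signals of 386, 501 and 542. Ndufa4, which later work places in complex IV in spite of its name, was nearly level at 8169, 7716 and 7931.

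Ndufa4l2, a paralogue of Ndufa4 known as a gene induced by low oxygen, was the exception among these genes. Its single probe set read 210, 91.7 and 29.1. The difference was −0.85 at day 1 and −1.65 at day 2, or 1.80-fold and 3.13-fold lower, and the day 2 signal lay below the added constant. The size therefore depends on that constant, and was −2.33 with a constant of 16 and −1.19 with 112.

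Complex I assembly factors help to build the complex and are not part of it. All 8 measured Ndufaf genes stayed within 1.5-fold in all 3 comparisons, where 35% of all genes were past it in at least 1. The median of the 8 was −0.14 at day 2 and −0.01 at day 1. Ndufaf3 was highest, at 1181, 1213 and 1705 (0.51 at day 2), and Ndufaf6 lowest, at 1186, 1179 and 840 (−0.47), followed by Ndufaf5 at −0.29. Ndufaf3 and Ndufaf6 were nearly level from day 0 to day 1 and differed at day 2 alone. The brightest probe set of Ndufaf4 gave 0.07, and its other kept one −0.67, so the gene has no settled direction.

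Complex III, which oxidises ubiquinol, had 8 measured genes. All 8 were within 1.5-fold in all 3 comparisons, where 35% of all genes were past it in at least 1. The complex III median was −0.02 at day 2 and −0.06 at day 1. Over the alternatives this median ran from −0.17 to 0.01 at day 2 and from −0.23 to −0.06 at day 1. Uqcrc2, a core protein, was highest with its brightest probe set, at 7019, 7603 and 8685 (0.30). Its other kept probe set read 7222, 7025 and 6965 (−0.05), so its direction is not settled. Uqcrc1, the other core protein, was at 9909, 9578 and 10210 (0.04). The Rieske iron-sulphur protein gene Uqcrfs1 was at 0.16, and Uqcrb read 24329, 25744 and 25636. Among the small subunits Uqcrq was lowest, at 6149, 4603 and 4623 (−0.41), and Uqcr10 was at 6010, 4728 and 5181 (−0.21). Both were lower at day 1 than at day 0, and Uqcrq was level from day 1 to day 2. The 3 dimmer kept probe sets of Uqcrq, with mean signals up to 105, gave −0.45, 0.41 and 0.55.

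Complex IV, cytochrome c oxidase, had 15 measured genes with a median of 0.03 at day 2 and 0.01 at day 1. Of these, 14 were within 1.5-fold at day 2, where 26.4% of all genes were past it. With their brightest probe sets the widely used forms lay between −0.31 and 0.23 at day 2, all within 1.5-fold. Cox4i1 read 21789, 26625 and 25527 (0.23), Cox5a 22194, 22757 and 19881 (−0.16), and Cox5b 16777, 16883 and 19695 (0.23). Cox6a1 (0.16), Cox6b1 (0.17), Cox6c (0.03), Cox7a2 (0.03) and Cox7a2l (0.06), whose product has a part in joining complexes into supercomplexes, lay between 0.03 and 0.17. Cox8a read 7132, 6180 and 5738 (−0.31).

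**Figure D2:**
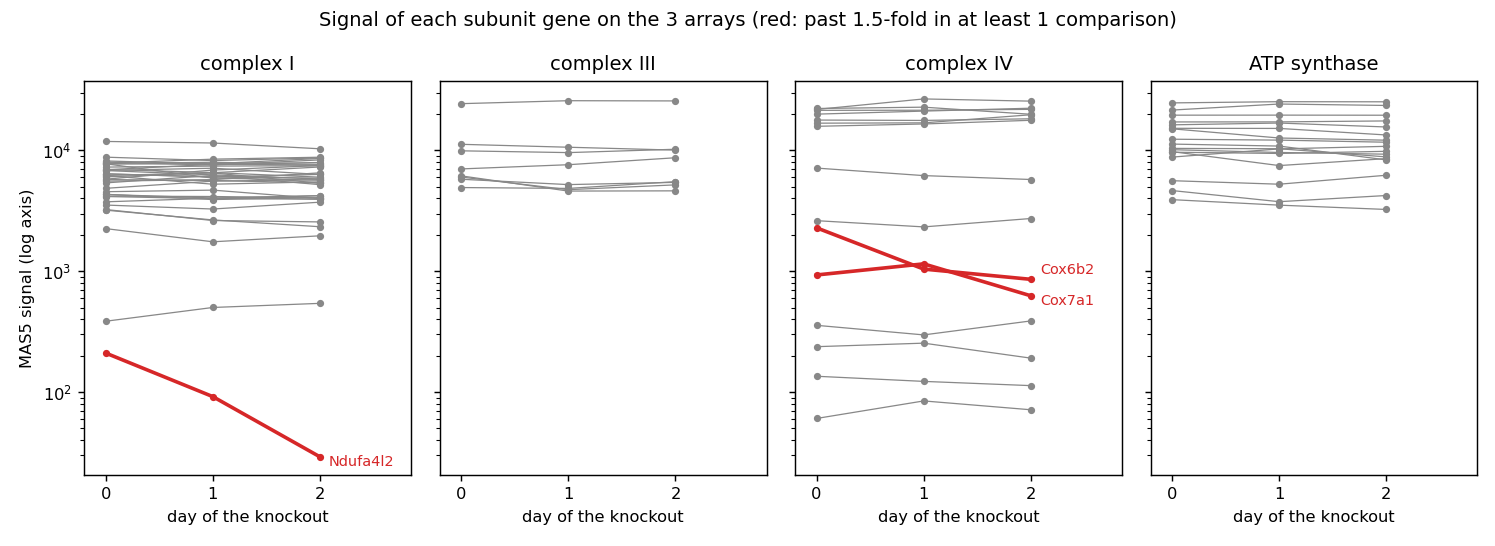
MAS5 signal, on a log axis, of each measured subunit gene on the arrays of day 0, day 1 and day 2, 1 line per gene and 1 panel per complex, with genes past 1.5-fold in at least 1 comparison in red. The grey lines run nearly flat, Ndufa4l2 goes from 210 to 29.1 and Cox6b2 from 2286 to 857. Heights of different probe sets are not comparable as expression levels.

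Cox6b2, the paralogue of Cox6b1 known from testis, read 2286 at day 0, 1041 at day 1 and 857 at day 2. It was 2.13-fold lower at day 1 (−1.09) and 2.57-fold lower at day 2 (−1.36), with most of the difference present at day 1. Cox6b1 read 15804, 16524 and 17727, at 0.06 and 0.17 against day 0, both within 1.5-fold. At day 2 the difference of Cox6b2 lay between −1.46 and −1.31 under the alternatives in which it was measured. Of 5 testis markers, Dazl, Ddx4 and Sycp3 were measured, Tnp1 and Prm1 were below the filter, and the summed signal of the 5 was 2196, 2367 and 1910. The part of such cells in the result was not tested.

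Cox7a1, the form of heart and skeletal muscle, read 931, 1150 and 626. It was 1.77-fold lower at day 2 than at day 1 (−0.82) and within 1.5-fold of day 0 on both later days, at 0.29 and −0.53. With equal ribosomal protein medians the day 2 value was −0.63, past 1.5-fold, which makes 3 lower subunit genes. Cox7a2 read 21430, 21464 and 21828. The summed signal of 8 striated muscle markers was 524, 696 and 603, which is also highest at day 1. These signals are dim, since 5 of the 8 reached the filter and 3, 5 and 5 lay above the added constant. The part of such cells in the Cox7a1 values was not tested.

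The promoters of these genes and of their widely used paralogues are shown because the pairs differ in the expression data. Each sequence is the 250 bases before the start of the gene, from RefSeq on GRCm38.p6, on the strand of the gene. Capitals mark matches to the motifs searched, on both strands: NRF1 (its core GCGCATGC), the ETS motif that GABP binds (CCGGAAG), YY1 (AAGATGGC), SP1 (GGGGCGG) and CRE (TGACGTCA). The windows are chr7:30626115-30626364 (minus strand) for Cox6b1, chr7:4753095-4753344 (minus strand) for Cox6b2, chr9:79759854-79760103 (minus strand) for Cox7a2 and chr7:30183921-30184170 (plus strand) for Cox7a1.
Cox6b1: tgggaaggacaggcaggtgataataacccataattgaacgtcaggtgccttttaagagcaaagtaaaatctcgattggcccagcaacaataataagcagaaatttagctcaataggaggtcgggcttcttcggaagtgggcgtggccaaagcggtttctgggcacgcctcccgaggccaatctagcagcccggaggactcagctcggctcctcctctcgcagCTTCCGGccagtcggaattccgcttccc
Cox6b2: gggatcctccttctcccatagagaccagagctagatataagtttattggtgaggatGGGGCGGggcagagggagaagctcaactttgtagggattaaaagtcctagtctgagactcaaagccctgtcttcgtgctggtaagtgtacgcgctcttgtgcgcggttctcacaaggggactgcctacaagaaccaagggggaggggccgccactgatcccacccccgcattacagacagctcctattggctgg
Cox7a2: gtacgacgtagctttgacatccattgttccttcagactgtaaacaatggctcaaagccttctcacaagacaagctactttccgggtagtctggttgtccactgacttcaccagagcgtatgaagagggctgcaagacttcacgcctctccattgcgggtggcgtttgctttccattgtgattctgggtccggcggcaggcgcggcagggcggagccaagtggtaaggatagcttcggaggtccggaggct
Cox7a1: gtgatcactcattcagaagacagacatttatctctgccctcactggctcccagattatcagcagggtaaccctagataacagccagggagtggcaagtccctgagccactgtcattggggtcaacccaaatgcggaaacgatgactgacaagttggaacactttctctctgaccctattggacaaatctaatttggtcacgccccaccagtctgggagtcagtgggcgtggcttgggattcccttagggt
In these windows Cox6b1 has 14 CpG dinucleotides and Cox6b2 has 8, Cox7a2 has 14 and Cox7a1 has 4. Cox6b1 has 1 ETS match and Cox6b2 has 1 SP1 match, and the windows of Cox7a2 and Cox7a1 hold 0 matches. Ndufa4l2 is not in the table.

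Of the subunit genes, 64 matched the RefSeq promoter table, with 69 windows of 300 bases, from 250 before to 50 after a start. Their median was 19 CpG dinucleotides, and that of all 32851 windows, which include genes of other biotypes, was 7. The ETS letters were in 21.7% of the subunit windows and 8.86% of all windows, and the YY1 letters in 13.0% and 2.75%. For NRF1 the shares were 11.6% and 2.71%, for CRE 4.35% and 1.79%, and for SP1 24.6% and 23.2%. The windows compared were not matched for CpG content, and its part in these shares was not tested. The 8 genes with the NRF1 letters are Ndufa6, Ndufa8, Uqcrc1, Uqcr11, Cox6a1, Atp5g2, Atp5k and Atp5l. NRF1 and GABP are transcription factors known for acting on nuclear genes of the respiratory chain, but a match is a description of the letters and not a binding site.

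The remaining paralogues of complex IV were dim. Cox4i2, the lung form, read 60.5, 84.5 and 71.4, close to the added constant, and Cox6a2, the muscle form of Cox6a1, read 135, 123 and 113. Cox8c, known from testis, read 357, 297 and 388 with its brightest probe set (0.11 at day 2), while the other kept one read 127, 136 and 37.8 (−0.97). The probe sets of Cox8c therefore disagree by 1.36 on the step from day 1 to day 2. Cox7b2 and Cox8b were below the filter, with no signal above 49.8, as was Ndufb4 with its only probe set that names it alone. Cox7c, a widely used subunit, was read by dim probe sets only, and its brightest gave 238, 254 and 191 (−0.25 at day 2). Its other kept probe set read 249, 154 and 121 (−0.78), past 1.5-fold lower.

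**Figure D3:**
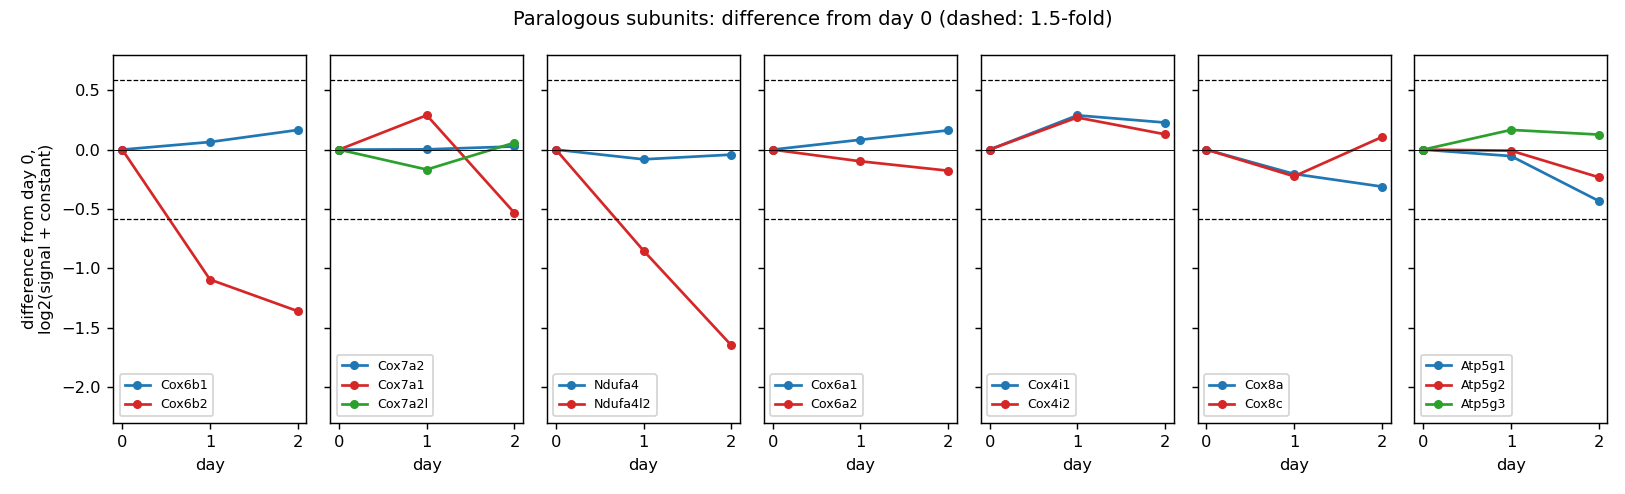
Difference from day 0 in log2(signal + constant) at day 1 and day 2 for paralogous subunits, 1 panel per family, with 1.5-fold dashed. Cox6b2 (−1.36 at day 2) and Ndufa4l2 (−1.65) leave the lines of Cox6b1 (0.17) and Ndufa4 (−0.04), and the c-ring genes end between −0.43 and 0.13.

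ATP synthase had 17 measured genes, with a median of −0.08 at day 2 and −0.03 at day 1. All 17 were within 1.5-fold in all 3 comparisons, where 35% of all genes were past it in at least 1. The catalytic F1 subunits were level: Atp5b, the catalytic beta subunit, read 24687, 25264 and 25208, and Atp5a1, the alpha subunit, read 19541, 19558 and 19521. The central stalk genes were Atp5c1 at −0.06, Atp5d at 0.29 (8791, 10278 and 10795) and Atp5e at −0.27 (3910, 3521 and 3243). The 3 genes Atp5g1, Atp5g2 and Atp5g3 encode the c subunit, which forms the rotating ring in the membrane, as the same mature protein from different precursors. Atp5g1 read 11266, 10849 and 8338 (−0.43), Atp5g2 read 10376, 10313 and 8825 (−0.23), and Atp5g3 read 21532, 24165 and 23514 (0.13). Atp5g1 and Atp5g2 were level until day 1 and lower at day 2, and Atp5g3 was above its day 0 signal on both days.

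In the peripheral stalk, which holds the catalytic head in place, Atp5pb was at 0.03, Atp5j at −0.12, Atp5o at −0.08 and Atp5h at −0.31. With only probe sets whose names end in plain _at (_x_at, _s_at and _a_at left out), Atp5h was at 0.08, so its direction is not settled. The 5 small membrane subunits Atp5k, Atp5l, Atp5j2, Atp5md and Atp5mpl lay between −0.19 and 0.15 at day 2. Atp5l, subunit g, was lower at day 1 (9759, 7482 and 8540), and Atp5md had a similar course (4649, 3760 and 4229).

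Other probe sets of the members qualify the picture of evenness. Beside the brightest probe set of each gene there were 76 further kept ones, and 9 of them were past 1.5-fold at day 2, 2 higher and 7 lower, none of which was the one that stands for its gene. Counting all 159 kept probe sets, 11 or 6.92% were past 1.5-fold at day 2, where 25.5% of all kept probe sets that name 1 gene were. For day 1 against day 0 the shares were 2.52% and 16.1%. Of the 9, 4 had mean signals of at least 2000 and were chosen for naming after their values were seen. Ndufb11 read 4362, 6412 and 7331 with this probe set (0.74), and its 2 others gave 0.27 and 0.31. A second probe set of Atp5o read 4222, 3119 and 2259 (−0.89), of Ndufb5 6139, 4952 and 3964 (−0.62), and of Uqcrh 7775, 5573 and 5045 (−0.62). The brightest probe sets of these genes gave −0.08, −0.21 and −0.16.

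**Figure D4:**
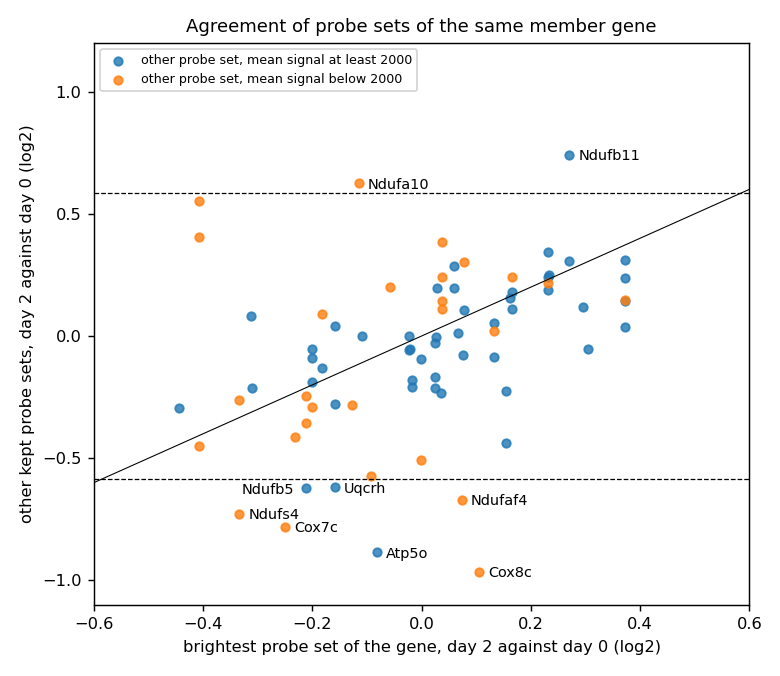
Difference for day 2 against day 0 of each further kept probe set (vertical) against that of the brightest probe set of the same gene (horizontal), in log2(signal + constant), with the line of equality and 1.5-fold dashed. The 9 labelled probe sets lie outside the dashed lines, among them Ndufb11 at 0.74 and Atp5o at −0.89.

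Other mitochondrial genes were read from lists set by function. In complex II and the electron carriers, 8 of 11 genes were within 1.5-fold at day 2, where 26.4% of all genes were past it. The subunits of complex II, which feeds electrons from succinate, were level, with Sdha at 0.04, Sdhb at 0.00045, Sdhc at −0.10 and Sdhd at 0.13. The cytochrome genes Cycs (0.17) and Cyc1 (0.05) were level too. The 3 past 1.5-fold were enzymes that pass electrons to ubiquinone from elsewhere. Gpd2, the mitochondrial glycerol 3-phosphate dehydrogenase, read 4183, 1640 and 1396 (−1.55), and its probe sets averaged −1.13. Dhodh, an enzyme of pyrimidine synthesis, read 1224, 1023 and 724 (−0.72), and Etfdh, which serves fatty acid oxidation, read 813, 1041 and 1415 (0.76).

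Assembly factors named outside the prefixes had a median of −0.15 at day 2, with 1 of 30 at least 1.5-fold higher, Sdhaf2 (0.62), beside 14.6% of all genes. The 3 lower ones, beside 11.8% of all genes, were Sco2 (−0.87), Nubpl (−0.60) and Cox15 (−0.60). Sco2, a copper chaperone of complex IV, read 489, 224 and 243, so its difference was present at day 1. The probe sets of Sdhaf2 averaged 0.19. Over the alternatives Cox15 ran from −0.70 to −0.29 at day 2 and Nubpl from −0.70 to −0.57, so neither was past 1.5-fold under all of them. In the tricarboxylic acid cycle with pyruvate dehydrogenase, 15 of 17 genes were within 1.5-fold at day 2, with Idh3a higher (0.61) and Pdhb lower (−0.62). The value of Idh3a was 0.0089 with plain _at probe sets only, and that of Idh2 then went from 0.60 to −0.28 at day 1 and from 0.13 to −0.75, past 1.5-fold lower, at day 2.

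Of 16 genes for mitochondrial DNA and biogenesis, 15 were within 1.5-fold at day 2, where 26.4% of all genes were past it. Polg2, a subunit of the mitochondrial DNA polymerase, was lower (−0.66). Nrf1 (1123, 1048 and 1155) was level, Tfam, which packages mitochondrial DNA, read 3760, 3059 and 2776 (−0.43), and Gabpa read 2777, 2201 and 1974 (−0.48). The coactivator gene Ppargc1b read 199, 80.6 and 311, a dip at day 1 of −0.90 from a low signal. Tfb1m was at 0.72 at day 1 and 0.20 at day 2, and at 0.09 at day 1 with plain _at probe sets only. Among carriers and porins, which pass ATP and metabolites across the mitochondrial membranes, 7 of 9 genes were within 1.5-fold at day 2. The share of all genes past it was again 26.4%. The median of this list was 0.23 at day 2, with 7 of its 9 genes above 0. Slc25a31, an adenine nucleotide carrier known from testis, read 129, 226 and 398 (1.30), and the mitochondrial creatine kinase gene Ckmt1 read 647, 343 and 228 (−1.31).

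In the glycolysis list 2 of 16 genes were at least 1.5-fold higher at day 2, beside 14.6% of all genes, and 4 lower, beside 11.8%. Its middle 50% was 0.55 wide, from −0.42 to 0.12. That of all genes was 0.64 wide, and that of genes with a mean signal of at least 2000 was 0.47. Past 1.5-fold in at least 1 comparison were 9 of the 16, beside 35% of all genes and 20.9% of those bright genes. The lowest at day 2 were Pfkp (−1.95) and Eno3 (−1.91), with Hk2 at −0.71. The highest was the glucose transporter gene Slc2a3 (0.66, and 1.40 with plain _at probe sets only). Hk1 read 1711, 4310 and 2058 and Ldhb 5067, 9370 and 5255, both highest at day 1. Among 76 mitochondrial ribosomal protein genes, 5 were past 1.5-fold on the lower side and 0 on the higher, with a median of −0.12, and of 38 proteasome genes 1 was lower and 0 higher, with a median of 0.05. For 47 cytosolic ribosomal protein genes the middle 50% lay between 0.04 and 0.21, a width of 0.17 where that of the subunit genes was 0.28 and that of all genes 0.64. The difference between any of these lists and the subunits was not tested, since the design has 1 array per day.

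**Figure D5:**
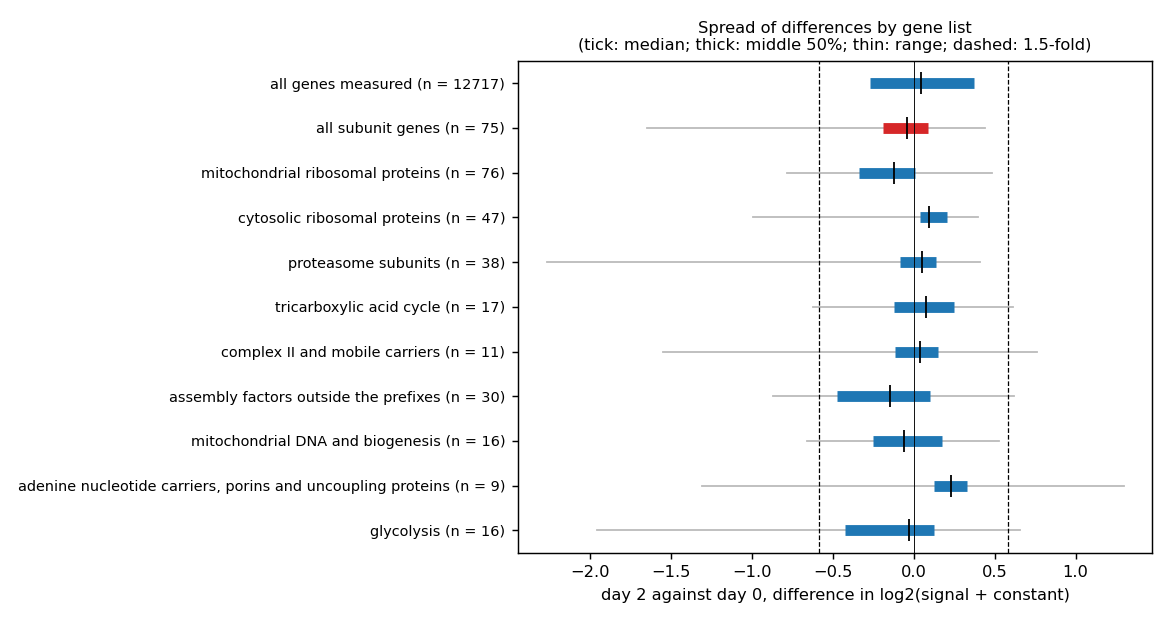
Differences for day 2 against day 0 in log2(signal + constant) for the subunit genes (red), all genes measured and the other gene lists, with the median as a tick, the middle 50% as a thick bar, the range as a thin line (not drawn for all genes) and 1.5-fold dashed. The subunit genes span a width of 0.28 in their middle 50% and all genes 0.64.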

How the data were processed

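Total RNA of mouse ES cells at day 0, day 1 and day 2 of a conditional Pou5f1 knockout was hybridised to Affymetrix arrays, 1 per day, per the labels. The deposited values are linear array intensities, 1 per probe set, made with MAS5 per the submitters' processing notes with no version named. The arrays share a 2% trimmed mean of 498. The day 2 column alone also holds 64 control probe sets, which were left out, and whether that array was processed apart is unknown. Arrays were scaled to the shared trimmed mean, 55.9 (the 40th percentile of all signals) was added before log2, and probe sets with a mean signal at or above that were kept (26925 of 45037). Names came from the platform annotation, and all 86 member genes matched GRCm38.p6 by Entrez identifier with 0 symbols changed. A gene took its brightest kept probe set, and probe sets naming several genes gave no value.

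With 1 array per day no test was run, and genes were counted past 1.5-fold and 2-fold beside all genes. Named were, per complex, the 2 highest and 2 lowest genes, those past 1.5-fold, the paralogue families, the brightest and dimmest probe sets, and genes whose probe sets differed by at least 1; from other lists, the extremes and those past 1.5-fold, with others added for their roles. Members and lists were chosen with earlier results of these data known. The number of arrays limits the precision. Python 3.11.15, numpy 2.4.6 and pandas 2.3.3 were used, and the scripts were tested on simulated data. Alternatives were other constants, filters, scalings and choices of probe set.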

Additional observations from a re-analysis of the deposited data

How the results depend on the processing

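Of 19 summary results, each under 9 alternatives and 1 filter added after seeing the data, 171 values stayed within the interval or count range of the value reported. The interval of a median was set by the spread between its genes, so it does not measure the error between arrays. With equal ribosomal protein medians, which moved the median of all genes from 0.04 to −0.08 at day 1 and from 0.05 to −0.05 at day 2, the subunit median was −0.16 at day 1 and −0.15 at day 2, that of complex I −0.18 and −0.15, and that of ATP synthase −0.16 at day 1. Cox7a1 was then at −0.63 at day 2, as the third subunit gene lower by 1.5-fold. Relative to the median of all genes the subunit median at day 2 then lay at −0.10, and at −0.09 as reported. Subunit genes at least 1.5-fold lower from day 1 to day 2 numbered 1 with the constant doubled. A filter at the 60th percentile drops Ndufa4l2, and 1 gene was lower by 1.5-fold in each comparison and 1 by 2-fold at day 2, and with a mean signal of at least 2000, which also drops Cox6b2 and Cox7a1, each of these counts was 0. Without a filter 1 subunit gene, Cox8b, was 1.5-fold higher at day 2. With only plain _at probe sets (_x_at, _s_at and _a_at left out), 59 subunit genes were measured. At day 2, 1 of them was higher, Ndufb11, and 4 lower, with Cox7c and Uqcrh added. In the other comparisons 1 was higher, Ndufab1 at day 1 and Ndufb2 from day 1 to day 2. The value of Idh2 at day 1 turned to −0.28. Of the differences of named genes against day 0 that were past 1.5-fold, this is the 1 that changed sign under these alternatives. No paired analysis was possible because each day has 1 array. Signals near the constant, such as those of Ndufa4l2 and Cox4i2, limit the size that can be read.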
